A study of Mus musculus with 158 samples.

Results

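The deposited RNA-seq gene counts of 2 mouse F1 hybrids were compared across 4 tissues. B6xSPRET mice were the offspring of C57BL/6J females and SPRET/EiJ males, an inbred strain derived from the species Mus spretus. B6xC3H mice were the offspring of C57BL/6J females and C3H/HeJ males, a classical laboratory strain of Mus musculus. Both hybrids therefore carry 1 C57BL/6J genome, and they differ in the genome inherited from the father. The comparison took the RNA-seq libraries labelled with either hybrid, 11 of the 158 samples of the series and 11 of its 17 RNA-seq libraries. B6xSPRET had 7 libraries, of which 2 were from liver, 2 from kidney, 2 from lung and 1 from B cells, and B6xC3H had 4 libraries, 1 per tissue. A further 5 libraries of B6xPWK mice (C57BL/6J females with PWK/PhJ males) stayed in the model to measure the spread, and their values are given beside the results. Mice were killed at 8 weeks of age, and no treatment was given. B6xC3H mice were hybrid females bought as such, whereas B6xSPRET and B6xPWK mice were bred at the study's own institute, and the sex of the mice behind their solid tissues is not given in the sources used here. Tissues of several mice were typically pooled, and B cells came from femoral marrow of females after depletion of cells with CD43 or Mac-1/CD11b. Because each hybrid had 1 source of mice, the hybrid cannot be told apart from the source of the mice.

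In an F1 hybrid, each gene is present once on the chromosome set of each parent, and both copies share the same nucleus and the same trans-acting factors. A difference in total RNA between hybrids can thus hold changes in either copy, and reads of a distant parental genome can also be placed differently on the reference. Processed pseudogenes are copies of messenger RNAs that were reverse-transcribed and inserted elsewhere in the genome. They retain the coding sequence of the source gene, usually without its introns, and individual copies can differ between mouse species. The libraries were made from total RNA with a kit that keeps strand. In the deposited tables the counts appear to lie on the strand opposite to the transcript, so each table row, named for 1 annotated gene, is given here with the gene on its other strand, and the 2 cannot be separated in these tables.

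Totals of the deposited counts were small, at 283725 to 465953 expected counts in B6xSPRET and 322257 to 809337 in B6xC3H. The study's own list of libraries gives far more uniquely mapped reads for each of these libraries. The deposited counts thus cover a small part of the mapped reads, and the reason was not tested. Levels are given as CPM, the count scaled to a common library total after TMM normalization. On this scale 1 count was worth 0.9869 CPM in the library with the largest scaled total (B6xC3H B cells). It was worth 8.901 CPM in the library with the smallest (B6xSPRET liver replicate 2). Among 4976 tested rows, 1578 had no count in that liver library. Kidney, liver and B cells were told apart on the rows opposite their marker genes. Rows named for their markers told them apart too, at lower sums. Lung was told apart only on rows named for markers. Named rows summed to 560.4 to 832.3 CPM in kidney, against at most 319.8 CPM elsewhere. In liver they summed to 2136 to 10310 CPM against at most 73.01 CPM, and in B cells to 128.5 and 127.3 CPM against at most 12.45 CPM. The 4 rows opposite kidney tubule markers summed to 19210 and 21850 CPM in B6xSPRET kidney and 22060 CPM in B6xC3H kidney, against at most 35.6 CPM in any other library of these hybrids. The 2 rows opposite hepatocyte markers, of which 1 was at 0, summed to 59250 and 47650 CPM in B6xSPRET liver and 52340 CPM in B6xC3H liver, and to at most 84.69 CPM elsewhere. The 5 rows opposite B cell markers, of which 2 were at 0, summed to 2977 CPM in B6xSPRET B cells and 5654 CPM in B6xC3H B cells, against at most 105.2 CPM elsewhere. For lung epithelium, the 12 rows named for markers summed to 299.4 and 188.5 CPM in B6xSPRET lung and 400.8 CPM in B6xC3H lung, against at most 29.37 CPM elsewhere. The 1 row opposite a lung epithelium marker did not separate the tissues, at 908.9 and 864.3 CPM in B6xSPRET lung and 907.9 CPM in B6xSPRET liver replicate 2.

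Across the 4 tissues, 111 rows differed between B6xSPRET and B6xC3H at an adjusted p below 0.05 (edgeR's quasi-likelihood test, tissue as covariate), which was 2.23% of the 4976 rows tested. Of these, 74 were higher in B6xSPRET (1.49% of tested rows) and 37 were lower (0.744%). An unadjusted p below 0.05 was reached by 680 rows, and the median log2 fold change of all tested rows was -0.058. The number of calls fell to 66 when B6xSPRET lung replicate 1 was left out. Higher rows made up 66.7% of the calls, 77.9% when only library totals were used for scaling and 93.2% with limma on log2(TPM + 1). In 32 of the 111 called rows the libraries of the 2 hybrids did not overlap at all, 24 with every B6xSPRET library above every B6xC3H library and 8 with every one below. Over all tested rows the same was seen for 30 rows above (0.603%) and 15 below (0.301%). A mean of at least 5 CPM and the same direction in each of the 4 tissues were met by 92 of the 111 rows (82.9%). Over all tested rows both were met by 914 (18.4%). The rows were called on the same libraries, which fixes part of this difference. Among the 92 rows, the 12 with the largest log2 fold change in each direction are described first.

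**Figure D1:**
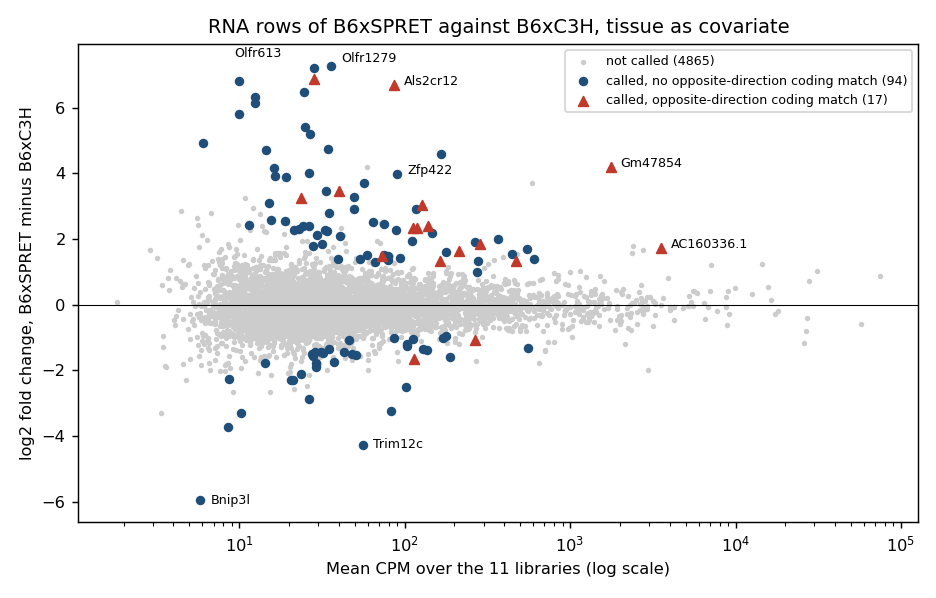
Each point is 1 of the 4976 tested rows, with its mean CPM over the 11 libraries on a log scale (x axis) and its log2 fold change, B6xSPRET minus B6xC3H (y axis). Triangles mark the 17 called rows whose exons match the coding sequence of another gene in the opposite direction, circles the other 94 called rows and grey points the rows not called. Of the 17 triangles, 15 lie above 0.

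Among the rows higher in B6xSPRET, 14 of 74 (18.9%) lay opposite the exons of an annotated pseudogene, against 1 of 37 lower rows (2.7%) and 64 of all tested rows (1.29%). The row named Als2cr12 (chr1:58646903-58695989, reverse strand) shares 317 exonic bases with Cbx3-ps7 on the other strand, a processed pseudogene of Cbx3, which encodes a heterochromatin protein of the HP1 family. Its B6xSPRET libraries ranged from 102.8 to 181.1 CPM with a median of 126.2 CPM. Its B6xC3H values were 0.9869 CPM in B cells, 0 in kidney, 0 in liver and 1.814 CPM in lung, a total of 2 counts. The groups did not overlap. The pooled ratio was 142, with a 95% counting interval of 39.1 to 1180, and the log2 fold change was 6.67 ± 0.525 (SE, adjusted p = 3.38e-09). In B6xPWK the row was at 64.4 to 195.6 CPM, with a median of 116.1 CPM, so the B6xC3H libraries alone were near 0.

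The row named Gm47854 (chr9:51621425-51655127, reverse strand) was the most abundant of the 12. Its opposite gene, Gm7293, is a processed pseudogene. The strand opposite the row's exons matches the coding sequence of Gapdh, a glycolytic enzyme, over 1026 bases with 96.3% identity. The B6xSPRET libraries held 452.1 to 5044 CPM with a median of 3755 CPM. The B6xC3H libraries held 38.49 CPM in B cells, 132.4 CPM in kidney, 246.5 CPM in liver and 36.27 CPM in lung. Each B6xSPRET library exceeded all 4 B6xC3H libraries, with a log2 fold change of 4.18 ± 0.42 (adjusted p = 4.55e-07). B6xPWK ranged from 31.42 to 1469 CPM with a median of 108.3 CPM, between the values of the other hybrids in kidney (964.4 CPM) and liver (1469 CPM). Als2cr12, Gm47854 and Trim12c were the 3 rows called in each of the 4 tissues when tissues were tested separately. Under a stricter filter and under scaling by library totals alone, Gm47854 was called in each of the 4, Als2cr12 missed the threshold in liver under the filter (adjusted p = 0.0549), and Trim12c missed it in B cells and kidney under both (0.0651 to 0.196).

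To show how close such rows are to a gene at another locus, the strand opposite the row was aligned to the coding sequence of that gene for 4 of the called rows without overlap between hybrids. The sequences are those of the reference genome (GRCm38/mm10, C57BL/6J), run 5′ to 3′ and say nothing of the SPRET/EiJ or C3H/HeJ alleles. Capitals mark the bases that differ within a pair. The Gm7293 stretch lies at chr9:51622817-51622936 on the forward strand and differs from positions 146 to 265 of the Gapdh coding sequence (chromosome 6) at 2 of 120 bases.
Gm7293 locus: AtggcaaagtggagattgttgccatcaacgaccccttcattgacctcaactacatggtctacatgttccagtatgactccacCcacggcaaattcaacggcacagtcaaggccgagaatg
Gapdh coding sequence: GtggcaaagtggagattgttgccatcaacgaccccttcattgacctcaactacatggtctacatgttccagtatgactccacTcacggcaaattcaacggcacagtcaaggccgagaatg
The Gm12626 stretch, opposite the row named Gm26837, lies at chr11:60632910-60633029 on the reverse strand and differs from positions 1 to 120 of the Pabpc4 coding sequence (chromosome 4) at 3 bases. Pabpc4 encodes a poly(A)-binding protein.
Gm12626 locus: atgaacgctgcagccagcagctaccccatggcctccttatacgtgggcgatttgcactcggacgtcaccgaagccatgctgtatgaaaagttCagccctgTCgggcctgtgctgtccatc
Pabpc4 coding sequence: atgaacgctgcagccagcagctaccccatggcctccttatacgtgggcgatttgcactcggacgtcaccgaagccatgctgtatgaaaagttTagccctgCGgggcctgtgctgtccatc
The Gm12101 stretch, opposite the row named Gm12100, lies at chr11:30754763-30754882 on the reverse strand and differs from positions 134 to 253 of the coding sequence of Ppp2r5a (chromosome 1), a regulatory subunit of protein phosphatase 2A, at 1 base.
Gm12101 locus: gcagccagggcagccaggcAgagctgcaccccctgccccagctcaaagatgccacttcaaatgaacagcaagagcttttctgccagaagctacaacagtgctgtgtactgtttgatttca
Ppp2r5a coding sequence: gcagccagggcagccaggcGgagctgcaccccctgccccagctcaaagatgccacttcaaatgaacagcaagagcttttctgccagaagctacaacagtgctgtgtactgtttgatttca
The Hist2h2ab stretch, opposite the row named Gm15444, lies at chr3:96219916-96220035 on the forward strand and differs from positions 1 to 120 of the coding sequence of Hist2h2ac at 5 bases. Both are functional histone H2A genes of 1 cluster on chromosome 3.
Hist2h2ab locus: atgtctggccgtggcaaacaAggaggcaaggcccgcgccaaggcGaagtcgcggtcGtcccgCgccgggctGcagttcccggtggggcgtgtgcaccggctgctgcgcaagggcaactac
Hist2h2ac coding sequence: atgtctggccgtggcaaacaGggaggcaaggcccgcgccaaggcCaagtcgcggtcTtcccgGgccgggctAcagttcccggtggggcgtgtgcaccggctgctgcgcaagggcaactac
Stretches this similar can share reads, and how the authors' counting divided such reads is not given in the sources used here.

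The other 3 rows of these pairs showed the same separation of the hybrids. Gm26837 ranged from 67.58 to 234.9 CPM in B6xSPRET with a median of 167.0 CPM, against 45.4 CPM in B cells, 37.51 CPM in kidney, 26.65 CPM in liver and 10.88 CPM in lung of B6xC3H. The log2 fold change was 2.35 ± 0.29 (adjusted p = 9.36e-06). Gm12100 ranged from 99.59 to 430.7 CPM with a median of 162.3 CPM, against 21.71, 33.1, 53.3 and 27.2 CPM in the B6xC3H B cell, kidney, liver and lung libraries. Its log2 fold change was 2.41 ± 0.31 (adjusted p = 1.16e-05). Gm15444 ranged from 101.4 to 445.0 CPM with a median of 153.2 CPM, against 29.61, 19.86, 6.663 and 12.7 CPM in the same order. Its log2 fold change was 3.05 ± 0.42 (adjusted p = 3.49e-05). B6xPWK medians of the 3 rows were 55.72, 24.77 and 17.03 CPM, each below the lowest B6xSPRET library. These 3 rows were chosen after their values had been seen, as were the further rows with a coding match named next.

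Over all tested rows, 82 (1.65%) had an exonic stretch of at least 200 bp whose opposite strand matched the coding sequence of a gene at another locus with at least 90% identity. Of these 82 rows, 15 were called higher in B6xSPRET (18.3%) and 2 lower (2.44%). Of 4649 rows with no match in either direction, 50 were called higher (1.08%) and 28 lower (0.602%). Of 245 rows that matched in the direction of the named gene only, 9 were called higher (3.67%) and 7 lower (2.86%). Rows with an opposite-direction match thus made up 20.3% of the rows called higher and 5.41% of those called lower. Their median log2 fold change was 0.324, with 63.4% positive, against -0.05 for rows without a match and 45.2% positive over all tested rows. They were also more abundant, with a median of 200.1 CPM against 34.01 CPM, and the part of abundance in this difference was not tested. With looser limits of 100 bp and 85% identity, 701 rows matched, and 28 (3.99%) were called higher and 7 (0.999%) lower.

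**Figure D2:**
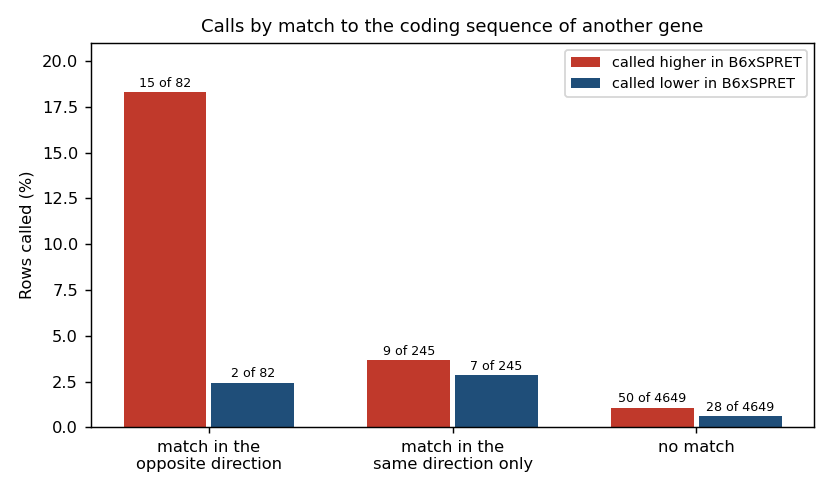
Bars give the percent of tested rows called higher (red) or lower (blue) in B6xSPRET, for rows that match the coding sequence of another gene in the opposite direction, in the same direction only, or not at all. The numbers above the bars are rows called of rows tested, and the highest bar is the 15 of 82 rows called higher with an opposite-direction match.

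Of the 15 higher rows, 11 lay opposite the exons of an annotated pseudogene. The genes that the 15 rows matched had varied roles and lay on many chromosomes. Besides Cbx3, Gapdh, Pabpc4, Ppp2r5a and Hist2h2ac, the matched genes included Anapc5, a subunit of the anaphase-promoting complex (row Gm10482), H2afz, the histone variant H2A.Z (row Gm26623), and Psmd11, a proteasome subunit (row A730017L22Rik). The row A730017L22Rik was higher (log2 fold change 1.33 ± 0.27, adjusted p = 0.00407), and its opposite gene Gm14048 has a row of its own on the other strand, which was lower by -1.38 ± 0.26 on the log2 scale (adjusted p = 0.0016). Further rows and matched genes were Arhgef12 (Sp140), AC160336.1 (Gm21897), Gm26750 (Aida), Gm27194 (Wsb2), Rpl13-ps1 (Rpl13) and Gm19684 (Gm11127), with identities of 94.5% to 99.6%. AC160336.1 had the highest level of any called row, at 254.5 to 22640 CPM with a median of 2193 CPM in B6xSPRET. The B6xC3H values of that row, 85.86 CPM in B cells, 1026 CPM in kidney, 3145 CPM in liver and 212.2 CPM in lung, fell inside the B6xSPRET range in all but B cells and lung. The 2 lower rows with such a match were Gm48771, opposite Gm8482 and matching the ribosomal protein gene Rpl29, and Gm11131, opposite H2-Q4 and matching H2-K1.

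The row named Gm48094 (chr10:31398923-31414401, forward strand) lies opposite Supt4b, a processed pseudogene. The strand opposite the row's exons matches the coding sequence of Supt4a, a transcription elongation factor, over 117 bases with 98.3% identity. B6xSPRET libraries ranged from 19.56 to 89.01 CPM with a median of 37.06 CPM. B6xC3H libraries held 0.9869 CPM in B cells, 6.619 CPM in kidney and 0 in liver and lung, a total of 4 counts. There was no overlap, and the log2 fold change was 4.00 ± 0.68 (adjusted p = 0.000623). B6xPWK libraries held at most 4.193 CPM.

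Open chromatin at the start of Supt4b, though not at that of Gm48094, was likewise called in B6xSPRET only. The deposited DNase-seq hotspots, which are regions of DNase I accessibility called from the pooled samples of each hybrid and tissue, held a site across the Supt4b start (chr10:31414165) in all 4 B6xSPRET sets. The sites spanned 244 bp in B cells (−log10 FDR of 11.6), 156 bp in kidney (2.46), 199 bp in liver (4.43) and 147 bp in lung (2.92). None of the 4 B6xC3H sets had a hotspot within 1 kb of that start. At the start of the row gene Gm48094 itself, a hotspot was present in 0 tissues of B6xSPRET and 1 of B6xC3H. Among the 3012 tested rows with an exon-overlapping opposite gene, Supt4b was the 1 opposite gene with a hotspot in all 4 B6xSPRET sets and in no B6xC3H set, and none had the reverse. It is described for that reason. Whether DNase-seq reads were shared between Supt4b and Supt4a was not tested. The sets are pooled, so the spread between samples is not known. The reference sequence of the B cell hotspot (chr10:31414038-31414281, reverse strand, 5′ to 3′) is shown because it carries this difference, with the 128 bases inside the annotated pseudogene in capitals.
Supt4b hotspot: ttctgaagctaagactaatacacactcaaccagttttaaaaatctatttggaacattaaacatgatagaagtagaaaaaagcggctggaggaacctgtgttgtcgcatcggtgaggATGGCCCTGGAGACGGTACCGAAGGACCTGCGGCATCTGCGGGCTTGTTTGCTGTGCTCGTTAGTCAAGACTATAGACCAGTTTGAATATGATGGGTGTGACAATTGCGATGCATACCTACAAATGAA
The 244 bases hold 9 CpG dinucleotides and 44.3% G or C.

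The row named Gm45703 (chr8:97149419-97164356, reverse strand) lies opposite the processed pseudogene Gm5131. It held 4.942 to 827.8 CPM in B6xSPRET with a median of 208.8 CPM, the highest values being in liver (279.0 and 827.8 CPM) and kidney (208.8 and 429.3 CPM). B6xC3H held 0 in B cells, 24.27 CPM in kidney, 0 in liver and 1.814 CPM in lung. The kidney library of B6xC3H lay inside the B6xSPRET range, above the B cell library only. The log2 fold change was 4.6 ± 0.64 (adjusted p = 4.26e-05). Its best coding match in the opposite direction was Acadm, an enzyme of fatty acid oxidation, at 89.1% identity over 586 bases, just under the 90% limit.

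The other 8 of the 12 rows had no annotated gene on the other strand. Given the strand of the tables, they cannot be read as messenger RNA levels of the named genes. Both rows with the largest fold changes are named for olfactory receptors, the odorant-binding proteins of nasal neurons. Olfr1279 (chromosome 2) was at 22.24 to 72.14 CPM in B6xSPRET with a median of 63.63 CPM and at 0 in all 4 B6xC3H libraries, which made it at least 38.8-fold higher (3 counts over the group as the floor, adjusted p = 5.05e-06). Olfr613 (chromosome 7) was at 17.3 to 62.24 CPM with a median of 49.12 CPM and at 0 in B6xC3H, at least 34.9-fold higher (adjusted p = 2.32e-05). B6xPWK held at most 10.03 and 3.096 CPM in these rows. Olfr1279 matches Olfr1284 in its own direction with 90.7% identity, so reads may be shared between these receptor genes. Of 13 tested rows whose symbol is Olfr and a number, the other 11 were not called, against 1.49% of all tested rows called higher, and the median log2 fold change of the 13 was -0.306. With rows annotated as receptor pseudogenes there were 16, with a median of -0.166.

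Gm42933, a processed pseudogene, was at 9.789 to 34.59 CPM in B6xSPRET with a median of 19.56 CPM and at 0 in B6xC3H, at least 14.5-fold higher (adjusted p = 0.000285). Gemin6, named for a component of the SMN complex that assembles spliceosomal particles, was at 0 in B6xSPRET liver replicate 2 and at up to 39.16 CPM in the other libraries, with a median of 17.19 CPM. It was at 0 in all B6xC3H and all B6xPWK libraries, which gave a difference of at least 15.6-fold (adjusted p = 0.00206). The groups touched at 0. Gm5641, which is identical to the coding sequence of Hnrnpa3 over 1071 bases in its own direction, ranged from 0 to 29.47 CPM with a median of 19.58 CPM, against 0 in B6xC3H, at least 11.2-fold higher (adjusted p = 0.037). Its call was lost in 7 of the 11 fits that left out 1 library, with adjusted p up to 0.294 over all alternatives.

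Etf1, named for the factor that ends translation at stop codons, ranged from 8.901 CPM (liver replicate 2) to 120.8 CPM (lung replicate 1) in B6xSPRET with a median of 48.95 CPM. The B6xC3H libraries were at 0.9869 CPM in B cells, 2.206 CPM in kidney, 6.663 CPM in liver and 1.814 CPM in lung. No library overlapped in CPM, but the lowest B6xSPRET value and every B6xC3H value were each 1 count, so scaling alone separated them. The log2 fold change was 4.74 ± 0.66 (adjusted p = 4.26e-05), but limma on log2(TPM + 1) gave 1.505 with an adjusted p of 0.65. Atp6v1f, a subunit of the vacuolar proton pump, was at 9.883 to 31.93 CPM with a median of 24.9 CPM against a single count in B6xC3H (2.206 CPM in kidney). The pooled ratio was 49.4 with a counting interval of 8.53 to 1990 (adjusted p = 0.000401). Zfp422, a zinc-finger protein, was at 80.02 to 275.9 CPM with a median of 108.1 CPM, against 1.974, 4.413, 19.99 and 10.88 CPM in B6xC3H B cells, kidney, liver and lung. Its log2 fold change was 3.97 ± 0.46 (adjusted p = 4.15e-06), and B6xPWK ranged from 3.096 to 31.45 CPM, so the B6xSPRET libraries lay above those of both other hybrids. The median B6xPWK level was 0 for Etf1 and Atp6v1f.

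**Figure D3:**
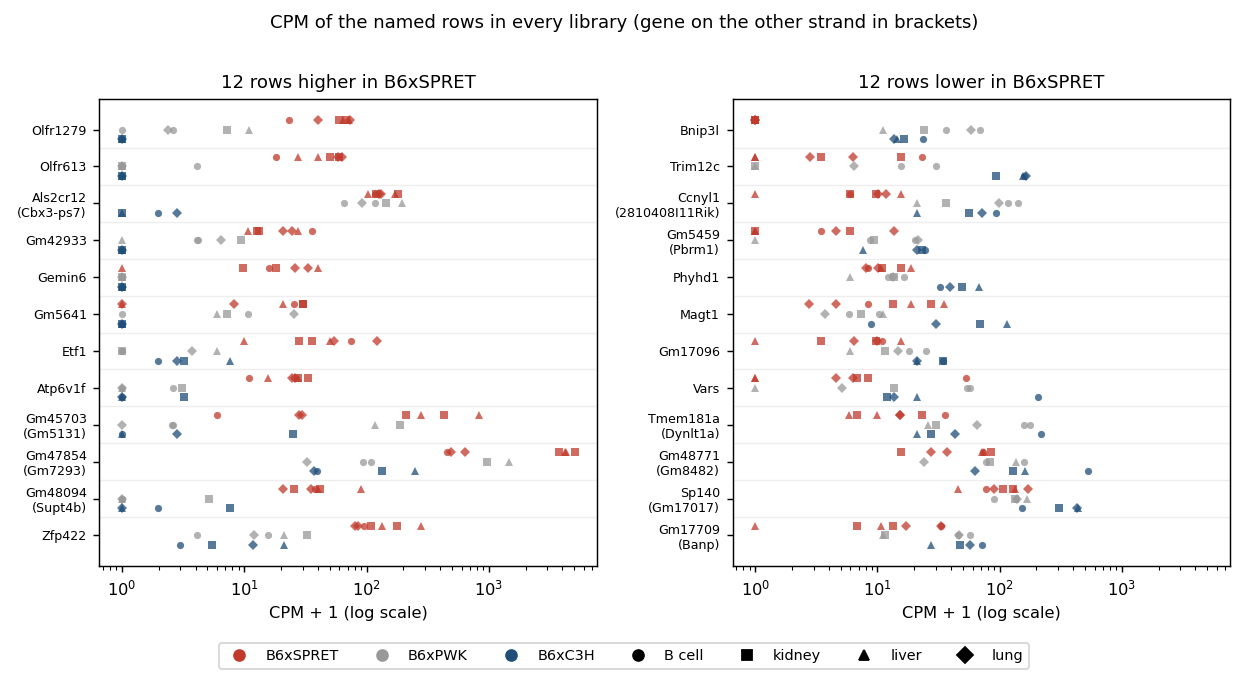
Points give CPM + 1 on a log scale (x axis) of the 12 rows with the largest positive and the 12 with the largest negative log2 fold change in all 16 libraries, with the gene on the other strand in brackets. Colours mark the hybrid and shapes the tissue; Als2cr12 in B6xPWK sits with B6xSPRET, and Bnip3l is at 0 in all 7 B6xSPRET libraries.

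Fewer rows were lower in B6xSPRET. Of the 12 named, Bnip3l, Trim12c, Phyhd1, Magt1, Gm17096 and Vars had no annotated gene on the other strand. As above, such rows cannot be read as messenger RNA levels of the named genes, and this holds for later paragraphs too. Bnip3l, named for a receptor of mitophagy, had no count in any of the 7 B6xSPRET libraries. In B6xC3H it was at 22.7 CPM in B cells, 15.45 CPM in kidney, 13.33 CPM in liver and 12.7 CPM in lung, which made it at least 15.5-fold lower in B6xSPRET (adjusted p = 0.000727). B6xPWK libraries ranged from 10.03 to 67.62 CPM. Trim12c (chr7:104338754-104353362, reverse strand), a TRIM gene of the cluster that holds Trim5, was at 0 to 22.24 CPM in B6xSPRET with a median of 2.456 CPM, against 157.9, 92.67, 153.2 and 163.2 CPM in B6xC3H B cells, kidney, liver and lung. The groups were far apart, with a log2 fold change of -4.26 ± 0.50 (adjusted p = 4.15e-06). B6xPWK was also low at 0 to 29.41 CPM, so that B6xC3H stood alone. The row matches Trim5 in its own direction with 95.5% identity, and reads of this gene cluster may be shared. In the same cluster, 76580 bp away, the row Gm47248, opposite Trim34a, was higher in B6xSPRET (log2 fold change 2.19 ± 0.40, adjusted p = 0.00117).

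Ccnyl1, a cyclin Y-like gene, lies opposite 2810408I11Rik. The row was at 0 to 14.68 CPM in B6xSPRET with a median of 8.761 CPM, against 92.77, 55.16, 19.99 and 70.73 CPM in B6xC3H. The log2 fold change was -2.88 ± 0.42 (adjusted p = 6.05e-05), with no overlap, and B6xPWK was at 20.06 to 140.1 CPM. Phyhd1, a dioxygenase, was at 7.113 to 17.8 CPM with a median of 9.789 CPM, against 31.58, 48.54, 66.63 and 38.09 CPM. Its log2 fold change was -2.10 ± 0.39 (adjusted p = 0.00139), and B6xPWK at 5.015 to 15.48 CPM lay with B6xSPRET. The row Sp140, opposite Gm17017 and named for a nuclear body protein of lymphoid cells, was at 44.5 to 170.7 CPM with a median of 105.6 CPM, against 150.0, 304.5, 439.8 and 429.8 CPM. The B cell library of B6xC3H lay within the B6xSPRET range and the other 3 above it, and the log2 fold change was -1.58 ± 0.28 (adjusted p = 0.000727). Its neighbour Gm2427, 85774 bp away, was also lower (-2.49 ± 0.36, adjusted p = 6.05e-05), and Sp140 is the gene that the higher row Arhgef12 matches through Gm5831.

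The remaining 7 lower rows had smaller or less stable differences. Tmem181a, opposite the dynein light chain gene Dynlt1a, had a log2 fold change of -1.75 ± 0.37 (adjusted p = 0.00568), and Gm26848, opposite the same gene, of -1.20 ± 0.26 (adjusted p = 0.00797). The B6xC3H B cell library was highest in Tmem181a at 216.1 CPM, and without it the difference was -1.385 (adjusted p = 0.06485), while without the B6xSPRET B cell library it was -1.487 (adjusted p = 0.0501). Gm48771 (Rpl29 match) had a difference of -1.64 ± 0.37 (adjusted p = 0.0112). It was at 525.0 CPM in B6xC3H B cells against at most 159.9 CPM in the other 3 B6xC3H libraries, and without that library the difference was -1.195 (adjusted p = 0.06405). Gm17709 (-1.56 ± 0.38) lies inside Banp on the other strand and matches Odc1, an enzyme of polyamine synthesis. Its call was lost without B6xSPRET lung replicate 1 (-1.441), B6xSPRET kidney replicate 2 (-1.465), B6xC3H kidney (-1.176) or B6xC3H liver (-1.46). The other 4 were Gm5459 (inside Pbrm1, matching Rpl7a), Magt1, Gm17096 and Vars, a transfer RNA synthetase, at -1.76 to -2.25 on the log2 scale. Their calls were lost in 9, 7, 10 and 9 of the 11 fits that left out 1 library. Vars owed much of its B6xC3H total to B cells, at 204.3 CPM against 11.03 to 19.99 CPM in the other tissues.

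Of 24 lists of tissue markers, pathways and gene classes, with 204 rows tested, 2 held a called row, each lower in B6xSPRET, and none held a row called higher. Over all tested rows, 1.49% were called higher and 0.744% lower, and these few calls set the lists apart in neither direction. Among 7 tested rows opposite antigen presentation genes, 1 was lower, Gm11131 opposite the class I gene H2-Q4, at 40.89 to 437.3 CPM with a median of 160.2 CPM in B6xSPRET. The B6xC3H libraries were at 555.6 CPM in B cells, 169.9 CPM in kidney, 319.8 CPM in liver and 547.7 CPM in lung, overlapping the B6xSPRET range (log2 fold change -1.08 ± 0.26, adjusted p = 0.0247). The median of these 7 rows was -0.138 and that of the 9 rows named for such genes -0.504, against -0.058 for all tested rows. Of 13 tested rows named for genes in a list of long non-coding nuclear RNAs, Gm26917, annotated as a lincRNA, was lower (-1.33 ± 0.36, adjusted p = 0.0459). It was at 12.62 to 893.7 CPM in B6xSPRET with a median of 53.84 CPM and at 70.07, 4276, 79.96 and 34.46 CPM in B6xC3H B cells, kidney, liver and lung, so that most of its B6xC3H counts came from kidney. The row was also highest in kidney in B6xSPRET (557.5 and 893.7 CPM) and in B6xPWK (2826 CPM). Without the B6xC3H kidney library its difference was -0.793 (adjusted p = 0.5045), and its call was lost in 9 of the 11 fits without 1 library. Gm11131 lost its call in 7 of them, with adjusted p up to 0.247. Ribosomal protein genes had 29 named rows tested and imprinted genes 13, with no call in either. Of 66 tested rows named for or opposite zinc-finger genes with a Zfp symbol, 1 was higher (Zfp422) and 1 lower (Zfp940), close to the 2.23% called over all tested rows.

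Within single tissues, each B6xC3H value is 1 library, whose spread was assumed to equal that of the other groups. B cells had 75 called rows (1.51% of tested rows), kidney 16 (0.322%), liver 25 (0.502%) and lung 19 (0.382%). With at least 20 counts in 4 or more libraries these became 26, 10, 10 and 8, and with library totals alone 38, 13, 12 and 6. Of the rows called, 28, 12, 13 and 14 were also among the 111 rows called over all tissues. The rows named below for single tissues were chosen after their values had been seen. Of these, Gm45470, Pigr, Gm17167, Xcr1 in kidney, Rnf121 and Gm47248 were called under both alternatives. Alb in liver and Slc31a1 in lung were called under neither. Cd74, Gm44454 and Gm47313 did not pass the stricter filter, and with library totals alone Gm47313 (adjusted p = 0.0392) was called and Cd74 (0.0625) and Gm44454 (0.0555) were not. In liver, Gm45470, opposite the adrenergic receptor gene Adrb3, was at 9.789 and 17.8 CPM in B6xSPRET against 699.6 CPM in B6xC3H (adjusted p = 9.44e-06). In the edgeR test over tissues it was also called lower (log2 fold change -3.23 ± 0.66, adjusted p = 0.00554), while the rows Alb and Pigr were not called. The rows Alb and Pigr have no annotated gene on the other strand, so they cannot be read as messenger RNA levels of these genes. Alb (serum albumin) was at 1224 and 845.6 CPM against 5111 CPM (adjusted p = 0.0192) and Pigr, the transporter of polymeric immunoglobulins, at 499.2 and 970.2 CPM against 5970 CPM (adjusted p = 0.00188). Beside this, the 14 rows named for hepatocyte markers, Alb among them, summed to 3612 and 2136 CPM in B6xSPRET liver and 10310 CPM in B6xC3H liver. The rows opposite such markers, given above, stood at 59250 and 47650 CPM against 52340 CPM. Their part in the liver results was not tested. In bulk tissue, fewer cells of a type and less RNA per cell cannot be told apart.

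In kidney, Gm17167 was at 427.3 and 347.5 CPM in B6xSPRET against 26.48 CPM in B6xC3H (adjusted p = 0.000523), and Xcr1, named for a chemokine receptor of dendritic cells, was at 56.48 and 84.69 CPM against 0. In lung, Rnf121, a ubiquitin ligase, was at 9.017 and 10.67 CPM against 132.4 CPM (adjusted p = 0.000698), while Slc31a1, the copper transporter, opposite Cdc26, was at 99.19 and 152.9 CPM against 16.32 CPM. The rows Gm17167, Xcr1 and Rnf121 have no annotated gene on the other strand, so the same limit holds for them. Gm17167, Xcr1 and Slc31a1 were also called higher in the edgeR test over the 4 tissues, with the same sign in each. Their log2 fold changes there were 2.92 ± 0.54 (adjusted p = 0.00148), 3.70 ± 0.52 (adjusted p = 4.39e-05) and 2.47 ± 0.36 (adjusted p = 6.05e-05). Rnf121 was not called over tissues (adjusted p = 0.265). In B cells, Gm47248 opposite Trim34a was at 610.3 CPM against 27.63 CPM. Lower were 2 rows opposite histone H2A genes, Gm47313 (Hist2h2aa1) at 88.95 CPM against 1554 CPM and Gm44454 (Hist1h2ak) at 24.71 CPM against 306.9 CPM, while Gm15444, opposite the H2A gene Hist2h2ab, was at 153.2 CPM against 29.61 CPM in B cells and was called higher over all tissues. Cd74, the invariant chain of class II antigen presentation, was at 27.18 CPM against 248.7 CPM (adjusted p = 0.0116). The single B6xC3H B cell library was the lowest of all 16 in 31 of the 57 rows called higher in B cells and the highest in 13 of the 18 called lower. The choice of these rows by their distance from that library fixes part of this, and it is no evidence about the library. Without this library, 161 rows were called in the comparison over tissues, of which 77 were among the 111.

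The difference between hybrids depended on the tissue in 9 rows (0.181% of tested rows), and 300 rows had an unadjusted p below 0.05 in that test. In 4 of them the single B6xC3H B cell library lay below all other 15 libraries. Kdm1b, a histone H3K4 demethylase, opposite the chromatin protein gene Dek, was at 6.908 CPM in B6xC3H B cells and at 746.2 CPM in B6xSPRET B cells. B6xC3H kidney, liver and lung held 778.9, 1319 and 836.0 CPM, of which liver lay above the B6xSPRET range of 307.6 to 1068 CPM and the other tissues within it. B6xPWK B cells held 679.5 and 574.3 CPM (adjusted p of tissue dependence = 0.000742). Gm13625, opposite the La protein gene Ssb, was at 0 in B6xC3H B cells and at 172.9 CPM in B6xSPRET B cells (adjusted p = 0.00337). Nox1, an NADPH oxidase, opposite the polyadenylation factor gene Cstf2, was at 1.974 and 88.95 CPM (adjusted p = 0.00337). Gm11991, whose opposite strand matches Hnrnpa3, was at 10.86 and 113.7 CPM in the same libraries (adjusted p = 0.0397). B6xPWK B cells were at 57.27 to 191.9 CPM in these last 3 rows. Without B cells, mt-Nd4l alone remained among the rows called, and with a filter of at least 20 counts in 4 or more libraries none of the 2945 rows was called, with 197 at an unadjusted p below 0.05.

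The other 5 rows followed other patterns. Apex2, a DNA repair endonuclease, lies opposite Alas2, the erythroid enzyme of heme synthesis. It was lower in B6xSPRET B cells (4.942 CPM) than in B6xC3H B cells (101.7 CPM). In B6xSPRET kidney, liver and lung it was at 211.2 to 680.3 CPM, against 136.8, 299.8 and 239.4 CPM in B6xC3H, with no call in these tissues (adjusted p of tissue dependence = 0.024). The same row is the one of the 2 rows opposite erythroid markers that had counts, and the 9 rows named for erythroid markers summed to 24.71 CPM in B6xSPRET B cells and 23.68 CPM in B6xC3H B cells. The part of erythroid RNA in this row was not tested. The row Rpl27, named for a ribosomal protein gene and without an annotated gene on the other strand, was at 0 in B6xSPRET B cells. It was at 66.12 CPM in B6xC3H B cells (adjusted p = 0.0241). The mitochondrial gene mt-Nd4l, a subunit of complex I, had counts in 3 of the 11 libraries, B6xSPRET kidney (90.87 and 222.0 CPM) and B6xC3H liver (219.9 CPM, adjusted p = 0.000304). Gm10925 and Gm28439 are nuclear copies of mitochondrial DNA on chromosome 1, identical over their match to mt-Atp6 and mt-Nd4, and were at 0 in B6xC3H B cells against 264.4 and 44.47 CPM in B6xSPRET B cells. In lung the direction was the opposite, with 57.71 and 0 CPM against 634.8 CPM for Gm10925 and 36.07 and 10.67 CPM against 399.0 CPM for Gm28439. Reads of such copies cannot be told apart from mitochondrial reads.

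**Figure D4:**
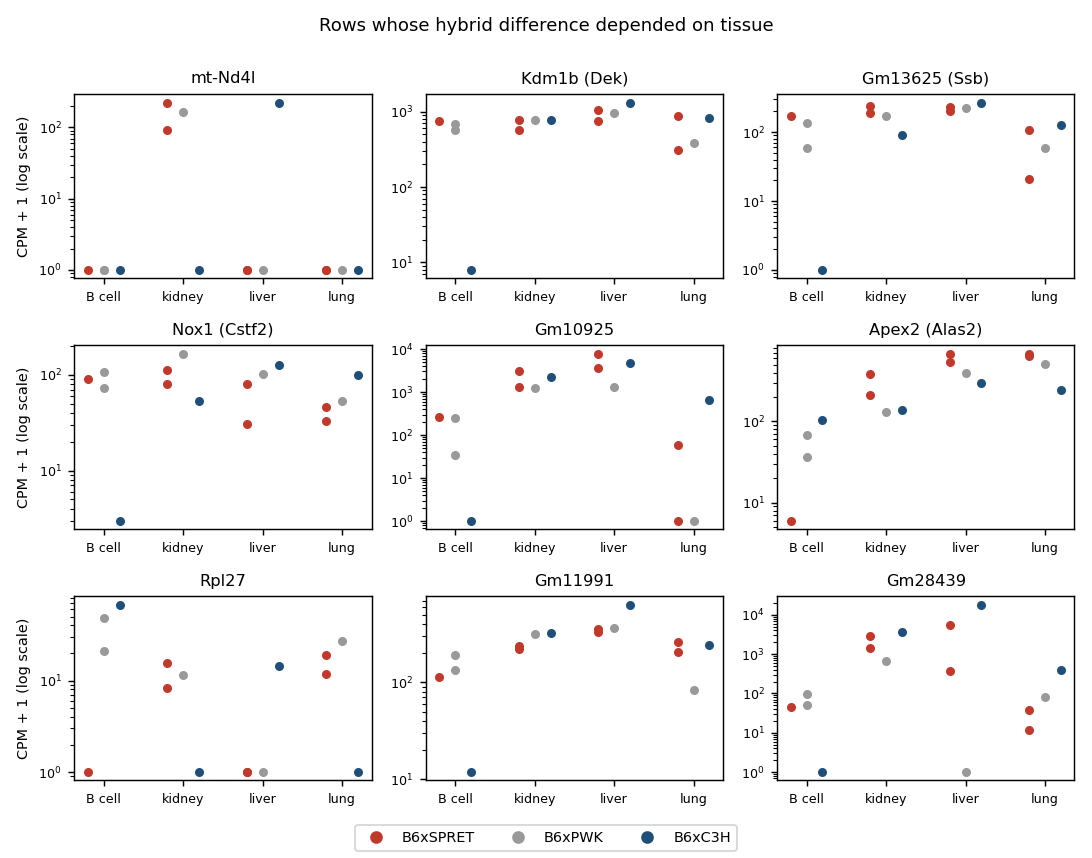
Each panel gives CPM + 1 on a log scale (y axis) of 1 of the 9 rows whose hybrid difference depended on tissue, by tissue (x axis) and hybrid (colour), 1 point per library. In Kdm1b, Gm13625, Nox1 and Gm11991 the B6xC3H B cell point lies below all others, while in Apex2 the B6xSPRET B cell point does.

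Whether the called rows had open chromatin at their starts was compared between hybrids as a description, since hotspots are pooled per hybrid and tissue. A hotspot within 1 kb of the row's own start was present in at least 1 tissue of B6xSPRET for 82.2% of the 4971 tested rows with an annotated position, 68.5% of the 73 called higher and 63.9% of the 36 called lower. The corresponding shares in B6xC3H were 82.3%, 71.2% and 63.9%. The number of tissues with a hotspot was equal in both hybrids for 85.7% of tested rows, 90.4% of those called higher and 83.3% of those called lower. Of the 12 named higher rows, Gemin6, Etf1, Atp6v1f and Zfp422 had a hotspot at the named gene's start in all 4 tissues of both hybrids, while Olfr1279, Olfr613, Gm5641, Gm45703 and Gm47854 had none in either. Bnip3l, Trim12c, Ccnyl1, Magt1 and Vars, lower in B6xSPRET, likewise had one in all 4 tissues of both hybrids. Of the rows named elsewhere, Gm12100 had a hotspot at its own start in 2 tissues of B6xSPRET and 0 of B6xC3H, and Gm45470 in 1 and 3. At the opposite gene's start, a hotspot in at least 1 tissue was present in B6xSPRET for 93.8% of the 3012 tested rows with such a gene, 76.9% of the 39 called higher and 73.7% of the 19 called lower. In B6xC3H these shares were 93.9%, 74.4% and 78.9%.

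Called rows lay on most chromosomes. Chromosome 17 had the highest share of called rows of any chromosome, 13 of 215 tested (6.05%), with 6 higher and 7 lower. The share over all tested rows was 2.23%. Kpna2, a nuclear import receptor, and its near-identical copy Gm10184 were both called higher, at log2 fold changes of 5.42 ± 0.85 and 5.19 ± 0.83. Their counts may have been split between the pair by the authors' counting, so that their levels are uncertain.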

How the data were processed

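Total RNA with ERCC spike-ins was sequenced from TruSeq Stranded libraries. The study names paired-end reads of differing lengths, and its list of libraries does not give the length used for each. The authors deposited 1 RSEM gene table per library on mm10, with expected counts, which were rounded to whole numbers and tested, and TPM values, which were used as log2(TPM + 1) in limma only. Their processing notes name Trimmomatic, STAR, RSEM and BWA. RSEM's strand setting and annotation release are not given in the sources used here. The deposited DNase-seq hotspots carry a −log10 FDR, and the authors called them at 5% FDR on the pooled samples of each hybrid and tissue.

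Expected counts of 16 libraries were fitted in edgeR 4.0.16 (R 4.3.3) with TMM scaling, filterByExpr, hybrid and tissue as terms and the quasi-likelihood test, with Benjamini-Hochberg adjustment over 4976 of 53715 rows. The filter keeps rows through either hybrid. Rows within single tissues and tissue dependence were tested in a fit with 1 mean per hybrid and tissue, which has 4 residual degrees of freedom. The labels do not say that libraries of a group came from separate pools of mice, so p-values measure the spread between libraries, which may be partly technical. Folds against a group at 0 used a floor of 3 counts over the group, and the intervals (95%, exact) and floors cover counting error only.

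Genes on the other strand were taken from GENCODE vM21, and exons were matched to coding sequences with BLAST 2.17.0 on the RefSeq copy of GRCm38. Named rows were called, had a mean of at least 5 CPM and the same sign in 4 tissues, and were the 12 largest in each direction. Added to these were the 6 rows with the smallest p for tissue dependence and called rows of the gene lists. The rows, lists and tests were chosen with earlier results of these data known. On simulated data, 74% of 200 rows changed 4-fold were recovered in the comparison over tissues, with 8.64% false calls. For tissue dependence, 48.2% of 193 rows changed 32-fold in B cells were recovered, with 14.7% false calls. DESeq2 1.42.0, limma 3.58.1, other scaling and filters, and the omission of each library were the alternatives. A B cell library was not used here because its hybrid is in doubt, being labelled B6xCAST in the labels and B6xC3H in the study's own list of libraries, which would add to the single B6xC3H B cell library. In addition, 1 row with a coding match is not reported here.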

Additional observations from a re-analysis of the deposited data

Results flagged for a closer look

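The difference between hybrids was itself different between tissues in 9 rows by the edgeR test of that dependence. The adjusted p was 0.000304 for mt-Nd4l, 0.000742 for Kdm1b, 0.00337 for Gm13625, 0.00337 for Nox1, 0.00463 for Gm10925, 0.024 for Apex2, 0.0241 for Rpl27, 0.0397 for Gm11991 and 0.0451 for Gm28439. In 4 of the 9 the B6xC3H B cell library was the lowest of the 16, and in 1 it was the highest. B6xC3H has 1 library in each tissue, so no spread within that hybrid and tissue was measured. Dixon's test for single outlying libraries was not applied, because no hybrid had more than 2 libraries of a tissue.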

How the results depend on the processing

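The 111 calls became 44 with limma on log2(TPM + 1), 65 with at least 20 counts in 4 or more libraries and 212 without a filter on low counts, where 27992 rows were tested. With 1 library left out, 66 to 161 rows were called. Rows called higher with an opposite-direction coding match numbered 12 to 17 over all of these fits, an alternative chosen after seeing the data, as were those within tissues. Of 26 named rows tested for the difference between hybrids, 13 were called in each of the 19 alternatives that tested them, and none changed direction. Ccnyl1 (-2.194, adjusted p = 0.0727) and Sp140 (-1.469, adjusted p = 0.148) lost their call with limma alone. Tissue dependence gave 0 rows under the stricter filter (197 at an unadjusted p below 0.05), 1 without B cells and 22 with DESeq2's likelihood ratio test on 1600 rows, 5 of them shared. Within tissues, the stricter filter left 26 rows in B cells, 10 in kidney, 10 in liver and 8 in lung, and scaling by library size alone left 38 in B cells, 12 in liver and 6 in lung. Counted over rows and tissues, a hotspot within 1 kb of the start was present for 59.6% of higher rows in either hybrid. Within 250 bp this was 52.7% in B6xSPRET and 53.1% in B6xC3H, and within 5 kb 74.3% and 72.6%. For lower rows it was 53.5% in B6xSPRET and 55.6% in B6xC3H within 1 kb, and 72.9% and 77.1% within 5 kb. The causes were not tested. No paired analysis was possible because the labels give the hybrids no shared replicate numbers. The small count totals limit low rows, since 1 count was worth up to 8.901 CPM.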
